A study of Mus musculus with 6 samples.

Results

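The antioxidant defence genes described here are Sod1, Sod2, Cat, Gpx1, Gpx4, Prdx1, Prdx2, Prdx3, Txn1 and Nfe2l2. They were taken at every probe set whose platform annotation gave exactly 1 gene symbol and that symbol was one of the 10. This gave 21 of 45101 probe sets and 9 of the 10 genes. Prdx1 had no such probe set, because the 5 probe sets that name it also name the pseudogene Gm21399. Sod1 had 5 probe sets, Sod2 had 4, Cat, Gpx4, Prdx2, Txn1 and Nfe2l2 had 2 each, and Gpx1 and Prdx3 had 1 each.

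Superoxide leaks from mitochondria and is made by NADPH oxidases, and superoxide dismutases turn it into hydrogen peroxide. Catalase, glutathione peroxidases and peroxiredoxins then remove the peroxide. Glutathione and thioredoxin are the electron donors of the glutathione peroxidases and peroxiredoxins, while catalase uses no donor. The transcription factor Nfe2l2 (Nrf2) drives many of these genes when Keap1 no longer marks it for degradation. Haematopoietic stem cells are known to be sensitive to oxidants, and a raised oxidant level pushes them out of quiescence.

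The study compared 2 groups of LSK cells, 3 samples from Tet1 KO mice and 3 from WT mice, with 1 Affymetrix array each. LSK cells are the lineage-negative, Sca-1-positive, Kit-positive fraction of bone marrow, a mixture of stem cells and multipotent progenitors. All mice were 6 months old and of the strain given as CD57BL/6, the cells were sorted directly from marrow, and 125 ng of RNA was used per array. Tet1 encodes a dioxygenase that oxidises 5-methylcytosine. How Tet1 was disrupted, and in which cells, is not stated in the labels. Separate mice for the samples are not stated in the labels, so the p-values reflect only how these samples vary, and the 3 arrays per group limit the precision.

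At all 4 of its probe sets Tet1 was lower in Tet1 KO with no overlap between the groups, with differences from -1.68 to -0.93 (log2), and none passed the adjusted threshold (adjusted p = 0.686, limma). The position of the deletion relative to these probe sets is not given. Tet1 KO replicate 2 stood apart. Its correlation with the other arrays over all probe sets was 0.937 to 0.944, against 0.970 to 0.984 among the other 5, and its bacterial controls read 4.87 against 4.21 to 4.37 elsewhere. Replicate 3 of Tet1 KO and replicate 3 of WT were low in Xist, 1 array on each side. Of the LSK markers, Kit, Cd34, Flt3 and Cd48 were measured and well above the bacterial control level of 4.39, which serves here as a guide to background. Marker lists of other cells were summed per array (log2 of the summed intensity), and limma called 0 genes of any list after adjustment. T cell markers summed to 7.11 to 7.49 in Tet1 KO and 6.93 to 7.02 in WT arrays, with all 5 measured genes higher in Tet1 KO, Cd4 and Cd8a above the bacterial controls, and Cd3e, Cd3d and Cd3g below them in each group. B cell markers summed to 9.95 to 10.7 in Tet1 KO and 8.92 to 9.70 in WT arrays, with 3 genes higher and 2 lower, and the sum followed Vpreb1, which averaged 10.01 in Tet1 KO and 8.28 in WT. The part of these cells in the values below was not tested.

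Promoter sequence is shown for the dismutases, for Nfe2l2 and for Prdx1, because Nfe2l2 is known to act through antioxidant response elements, and so that promoters with and without a match to its core can be read side by side. The sequences are from RefSeq, assembly GRCm38.p6, 120 bases each, 5′ to 3′ on the strand of the gene. Capitals mark matches on either strand to the element's core, TGACNNNGC, or to the GC box, GGGCGG, the kind of site that Sp1 binds.
Sod1, chr16:90220642-90220761, plus strand: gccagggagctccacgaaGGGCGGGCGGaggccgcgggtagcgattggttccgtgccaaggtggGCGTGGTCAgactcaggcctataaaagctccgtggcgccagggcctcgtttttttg
Sod2, chr17:13007699-13007818, plus strand: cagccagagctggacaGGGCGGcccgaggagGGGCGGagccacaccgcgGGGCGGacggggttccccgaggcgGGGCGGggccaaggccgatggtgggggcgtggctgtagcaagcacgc
Nfe2l2, chr2:75704794-75704913, minus strand: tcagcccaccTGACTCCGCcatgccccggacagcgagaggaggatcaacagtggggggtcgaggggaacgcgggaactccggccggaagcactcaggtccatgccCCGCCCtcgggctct
Prdx1, chr4:116685419-116685538, plus strand: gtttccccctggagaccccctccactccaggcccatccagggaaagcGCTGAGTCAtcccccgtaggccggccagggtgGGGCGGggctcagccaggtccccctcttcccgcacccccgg

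The element core occurred in the 250 bases before the start of 3 of the 10 genes, Sod1, Prdx1 and Nfe2l2, and in 3 of their 13 listed promoters. It occurred in 10.2% of all 32851 promoters in the table. In Sod1 and Prdx1 the match lay on the opposite strand, at bases -56 to -48 and -133 to -125 from the start, and in Nfe2l2 it lay on the gene's own strand, at -240 to -232. The GC box occurred in 8 of the 10 genes, the exceptions being Gpx1 and Prdx2, and in 10 of their 13 listed promoters, against 32.7% of all promoters. In the Sod1 window the neighbouring GC boxes overlap each other. A match describes the letters in this window and was not tied to binding.

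No antioxidant defence gene passed the adjusted threshold between Tet1 KO and WT LSK cells. Of 21 probe sets, 6 were higher and 15 lower in Tet1 KO, by -0.77 to 0.42 on the log2 scale, with a median difference of -0.06. Over all 45037 tested probe sets 25714 were higher and 19323 lower. Above the 75th percentile of mean level, where 16 of the members lay, 3738 of 11259 probe sets were higher and 7521 lower. Limma called 0 of 21 after Benjamini-Hochberg adjustment over all 45037 tested probe sets (adjusted p from 0.686 to 0.996), and the share called among all probe sets was 0%. Unadjusted p-values under 0.05 were found for 0 higher members and 1 lower member, Gpx4 at 1451695_a_at, where 3.23% of all probe sets were called higher and 3.58% lower. The groups did not overlap at 3 member probe sets, all lower in Tet1 KO, 1 each of Sod1, Gpx4 and Txn1, and 0 were higher. Among all probe sets 9.96% were higher without overlap and 6.29% lower. Above the 75th percentile of level, 346 of 11259 probe sets were higher without overlap and 1431 lower. In such sorted bulk samples, fewer cells of a type and less RNA per cell cannot be told apart.

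What the arrays allow is shown by the 95% intervals of the differences. At 7 of 21 probe sets, of Sod1, Gpx4, Prdx3, Txn1 and Nfe2l2, the whole interval lay within 0.5 of 0 on the log2 scale, and at 14 it lay within 1. Among the 7, Sod1 at 1447761_x_at averaged 1.96 in Tet1 KO and 2.01 in WT, under the bacterial control level. Txn1 at 1456734_at averaged 4.68 in Tet1 KO and 4.57 in WT, near that level. At these dim probe sets a narrow interval does not bound a change in the gene. The interval included 0 at 20 of 21.

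**Figure D1:**
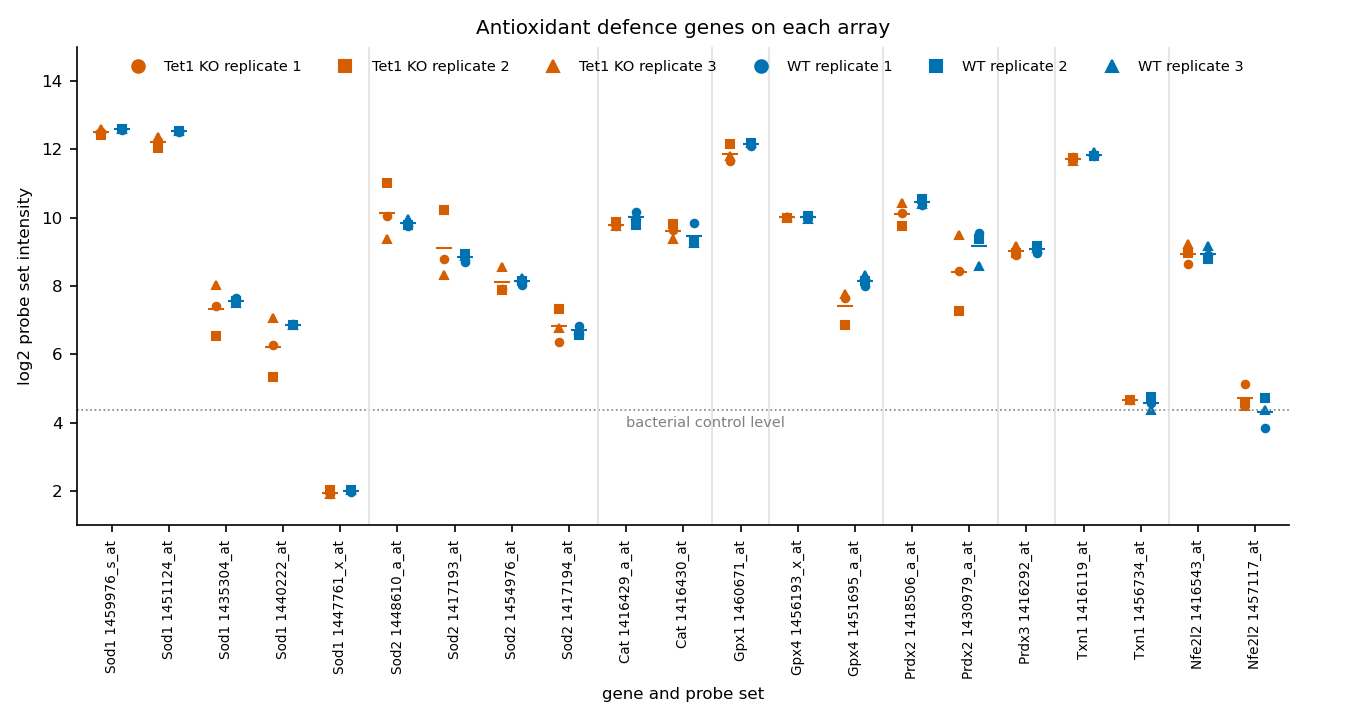
Log2 probe set intensity of each member probe set on each array, with Tet1 KO points left of WT points. The groups overlap at 18 of 21 probe sets, and the WT points lie closer together than the Tet1 KO points at 15.

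Nfe2l2, the transcription factor of the group (chromosome 2, 75675513 to 75704663, minus strand), had the same mean in both groups at its brighter probe set. At 1416543_at the Tet1 KO arrays read 8.65, 8.97 and 9.23, against 8.90, 8.78 and 9.18 in the WT arrays. The arrays interleave. Means were 8.95 ± 0.29 in Tet1 KO and 8.95 ± 0.20 in WT (SD, n = 3 each), and the difference of -0.00318 had a standard error of 0.20 and an interval of -0.49 to 0.49. Its sign changed in 4 of 14 alternatives, with values from -0.14 to 0.15. The dimmer probe set, 1457117_at, read 5.13, 4.59 and 4.49 in Tet1 KO and 3.85, 4.71 and 4.37 in WT. Its difference was 0.42 (SE 0.28), 0.20 without WT replicate 1 and 0.23 without Tet1 KO replicate 1. The WT mean of 4.31 was under the bacterial control level, and WT replicate 2 lay above 2 of the 3 Tet1 KO arrays. Nfe2l2 is controlled mostly through the stability of its protein, which an array does not measure.

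Sod1, the copper-zinc dismutase of the cytosol (chromosome 16, 90220762 to 90226333), was lower in Tet1 KO without overlap at 1 of its 5 probe sets. At 1451124_at the Tet1 KO arrays read 12.24, 12.06 and 12.36 and the WT arrays 12.52, 12.54 and 12.53. All 3 WT arrays agreed to within 0.02 and every Tet1 KO array lay below them, but the difference of -0.31 (SE 0.15, interval -0.66 to 0.04), a ratio of 0.806, did not pass (adjusted p = 0.686). The brightest Sod1 probe set, 1459976_s_at, read 12.52, 12.43 and 12.59 in Tet1 KO and 12.58, 12.59 and 12.61 in WT, a difference of -0.08 (SE 0.14) that was -0.02 after quantile normalization and -0.000228 after cyclic loess. There Tet1 KO replicate 3 fell inside the WT range.

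The Sod1 probe sets 1440222_at and 1435304_at were spread more widely among the Tet1 KO arrays than among the WT arrays. At 1440222_at these read 6.27, 5.34 and 7.06, against 6.89, 6.87 and 6.87 in WT, a difference of -0.65 (SE 0.41). Leaving out Tet1 KO replicate 2 gave -0.21, and leaving out Tet1 KO replicate 3 gave -1.07. At 1435304_at the values were 7.43, 6.53 and 8.02 in Tet1 KO and 7.65, 7.57 and 7.50 in WT. Tet1 KO replicate 2 was the lowest array and Tet1 KO replicate 3 the highest at both probe sets. The difference of -0.25 at 1435304_at was 0.15 without Tet1 KO replicate 2, and -0.60 when Tet1 KO replicate 3 was dropped. The last Sod1 probe set, 1447761_x_at, averaged 1.96 in Tet1 KO and 2.01 in WT, under the bacterial control level.

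Sod2, the manganese dismutase of mitochondria (chromosome 17, 13007839 to 13018119), had its widest readings in Tet1 KO at its brightest probe sets. At 1448610_a_at the Tet1 KO arrays read 10.06, 11.03 and 9.37 and the WT arrays 9.75, 9.80 and 9.97. Tet1 KO replicate 2 lay above every WT array and Tet1 KO replicate 3 below every one. The difference was 0.31 (SE 0.40, adjusted p = 0.784), with -0.13 left when Tet1 KO replicate 2 was dropped and 0.70 when Tet1 KO replicate 3 was. At 1417193_at the same arrays were at the ends, with 8.81, 10.22 and 8.33 in Tet1 KO against 8.72, 8.93 and 8.89 in WT. That difference was 0.27 (SE 0.46), -0.28 without Tet1 KO replicate 2.

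Other Sod2 probe sets did not share this order. At 1417194_at the Tet1 KO arrays read 6.36, 7.34 and 6.77 and the WT arrays 6.83, 6.57 and 6.72, a difference of 0.12 (SE 0.26) that was -0.14 without Tet1 KO replicate 2. At 1454976_at they read 7.92, 7.89 and 8.55 in Tet1 KO and 8.04, 8.15 and 8.24 in WT. There Tet1 KO replicate 2 was the lowest array and Tet1 KO replicate 3 the highest, and the difference was -0.02 (SE 0.22). Its sign changed in 6 of 14 alternatives, which ran from -0.24 without Tet1 KO replicate 3 to 0.10 after cyclic loess. Which transcripts each Sod2 probe set reads was not analysed here.

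**Figure D2:**
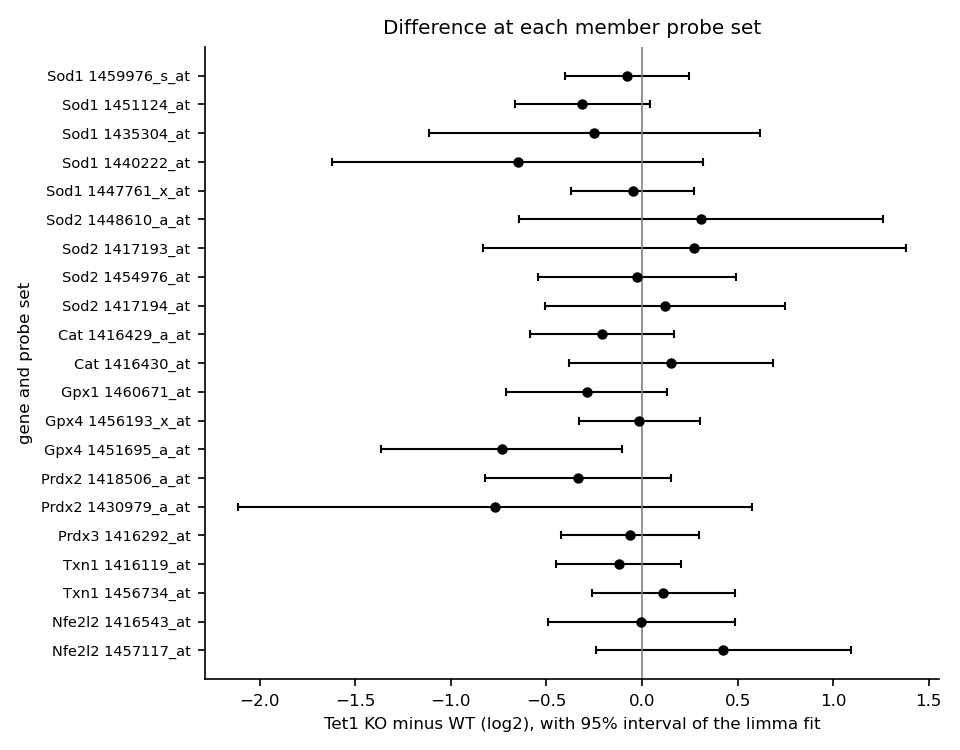
Difference of Tet1 KO minus WT (log2) for each member probe set, with the 95% interval of the limma fit. The interval of 1451695_a_at of Gpx4, from -1.36 to -0.10, is the 1 of 21 that does not include 0.

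Catalase, Gpx1 and Gpx4 remove peroxides, catalase in peroxisomes without a donor, Gpx1 with glutathione, and Gpx4 from lipids within membranes. Gpx4 (chromosome 10, 80047166 to 80056439) held the member with the smallest unadjusted p. At 1451695_a_at the Tet1 KO arrays read 7.66, 6.86 and 7.76 and the WT arrays 8.02, 8.15 and 8.31. No Tet1 KO array reached a WT array, and the means were 7.43 ± 0.49 in Tet1 KO and 8.16 ± 0.15 in WT (SD, n = 3 each). The difference of -0.73 (SE 0.26, interval -1.36 to -0.10), a ratio of 0.601, did not pass after adjustment (adjusted p = 0.686). Dropping Tet1 KO replicate 2 left -0.45 and dropping Tet1 KO replicate 3 left -0.90, and the unadjusted p was no longer under 0.05 without WT replicate 2 or without WT replicate 3.

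The brighter Gpx4 probe set gave no such difference. At 1456193_x_at the Tet1 KO arrays read 10.03, 9.998 and 10.01 and the WT arrays 10.06, 10.05 and 9.97. The difference was -0.01 (SE 0.13, interval -0.33 to 0.30), and it was 0.04 after quantile normalization and 0.11 after cyclic loess. The interval of 1451695_a_at overlaps this one, and whether the probe sets differ in their response was not tested. RefSeq lists several starts for Gpx4, whose alternative first exons direct the enzyme to mitochondria or elsewhere.

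Gpx1 (chromosome 9, 108339080 to 108340342), a selenium enzyme like Gpx4, was lower on 2 of the 3 Tet1 KO arrays. At 1460671_at the Tet1 KO arrays read 11.65, 12.16 and 11.80 and the WT arrays 12.10, 12.18 and 12.20. Tet1 KO replicate 2 fell within the WT range and the other Tet1 KO arrays below it. The difference of -0.29 (SE 0.18, interval -0.71 to 0.13, adjusted p = 0.686) was -0.43 without Tet1 KO replicate 2, and -0.18 when replicate 1 of that group was dropped.

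Cat (chromosome 2, 103453904 to 103485153) had differences of opposite sign at its 2 probe sets. At 1416429_a_at the Tet1 KO arrays read 9.77, 9.87 and 9.77 and the WT arrays 10.17, 9.80 and 10.07, a difference of -0.21 (SE 0.16). It was -0.13 without WT replicate 1, -0.32 without WT replicate 2 and -0.09 after cyclic loess. At 1416430_at they read 9.64, 9.83 and 9.38 in Tet1 KO and 9.85, 9.28 and 9.26 in WT, a difference of 0.15 (SE 0.22). Groups overlapped at both probe sets, and both intervals include 0. At 1416430_at the difference ranged from 0.04 without Tet1 KO replicate 2 to 0.34 without WT replicate 1.

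Prdx2 and Prdx3 are peroxiredoxins, thiol enzymes that reduce peroxide in the cytosol and in mitochondria. Prdx2 (chromosome 8, 84969622 to 84974811), abundant in red cells, read 10.15, 9.76 and 10.43 in Tet1 KO and 10.39, 10.54 and 10.42 in WT at 1418506_a_at. Tet1 KO replicates 1 and 2 were the lowest arrays, and Tet1 KO replicate 3 lay in the WT range. The difference was -0.34 (SE 0.20, adjusted p = 0.686), and -0.16 without Tet1 KO replicate 2.

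Prdx2 had the most uneven member probe set, 1430979_a_at. Its Tet1 KO arrays read 8.45, 7.27 and 9.49, a range of 2.21, and its WT arrays 9.55, 9.37 and 8.59, a range of 0.964. The difference of -0.77 (SE 0.56, interval -2.11 to 0.57) was -0.20 without Tet1 KO replicate 2, and -1.31 when replicate 3 of that group was dropped. The erythroid markers summed to 7.03 to 8.22 in Tet1 KO and 7.68 to 7.87 in WT (log2 of the summed intensity over 5 of 7 genes, 2 of them under background). On Tet1 KO replicate 2, where Prdx2 was lowest, the sum was highest and so were Klf1 and Slc4a1. Epor lay a little below the WT arrays there, at 5.12 against 5.20 to 5.28. Of the genes under background, Alas2 lay below every WT array and Hba-a1 within the WT range. The part of erythroid cells in the Prdx2 values was not tested.

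Prdx3 (chromosome 19, 60864066 to 60874538) read 8.92, 8.98 and 9.19 in Tet1 KO and 8.99, 9.17 and 9.13 in WT at 1416292_at. The arrays interleave, and the difference of -0.06 (SE 0.15) had an interval of -0.43 to 0.30. Its direction turned after quantile normalization, to 0.02, and after cyclic loess, to 0.07, and it was -0.01 without Tet1 KO replicate 1.

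Txn1, thioredoxin, returns oxidised peroxiredoxins to their reduced form (chromosome 4, 57943373 to 57956411). At 1416119_at the Tet1 KO arrays read 11.77, 11.74 and 11.66 and the WT arrays 11.80, 11.82 and 11.92. The groups did not overlap, but the gap between Tet1 KO replicate 1 and WT replicate 1 was small and the difference of -0.12 had a standard error of 0.14 and an interval of -0.45 to 0.21 (adjusted p = 0.762). It was -0.03 after cyclic loess normalization. At the dimmer 1456734_at all 3 Tet1 KO arrays carried the value 4.68, and the WT arrays read 4.58, 4.75 and 4.37.

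Counted once per gene, with the brightest probe set standing for it, Sod2 was higher in Tet1 KO and the other 8 genes were lower, with a median difference of -0.08. Of the 8, Gpx4, Prdx3 and Nfe2l2 turned to higher under both quantile normalization and cyclic loess, and Sod2 turned to -0.13 without Tet1 KO replicate 2. Limma called 0 of the 9 after adjustment over all 18193 genes, of which 0% were called. An unadjusted p under 0.05 was reached by 0 of the 9, against 3.25% of all genes higher and 3.96% lower. The groups did not overlap for 1 gene, Txn1, which was lower, where 10.3% of all genes were higher and 6.88% lower without overlap. The probe sets standing for the 9 genes all lay above the 75th percentile of mean level. There 3738 of 11259 probe sets were higher and 7521 lower, with 346 higher and 1431 lower without overlap. By sign, 10280 of all 18193 genes were higher and 7913 lower.

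The Tet1 KO arrays disagreed among themselves more than the WT arrays did. The median SD over the 21 probe sets was 0.287 in Tet1 KO and 0.0992 in WT, and the Tet1 KO range was the wider at 15 of 21. Over all tested probe sets the median SD was 0.298 in Tet1 KO and 0.174 in WT. The 3 WT readings of a member spanned under 0.5 at 18 of 21 probe sets, and the 3 Tet1 KO readings did so at 9.

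Tet1 KO replicate 2 was the Tet1 KO array farthest from the WT mean for 12 of 21 members, which is 57.1%, and for 56.3% of all probe sets. Its median deviation from the WT mean over the members was -0.10, against -0.17 for Tet1 KO replicate 1 and -0.01 for Tet1 KO replicate 3. Over all probe sets these medians were 0.10 for Tet1 KO replicate 2, 0.01 for replicate 1 and 0.03 for replicate 3, and over probe sets above the 75th percentile of level they were -0.22, -0.08 and -0.07 in the same order. Members below the WT mean numbered 17 on Tet1 KO replicate 1, 13 on Tet1 KO replicate 2 and 12 on Tet1 KO replicate 3.

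**Figure D3:**
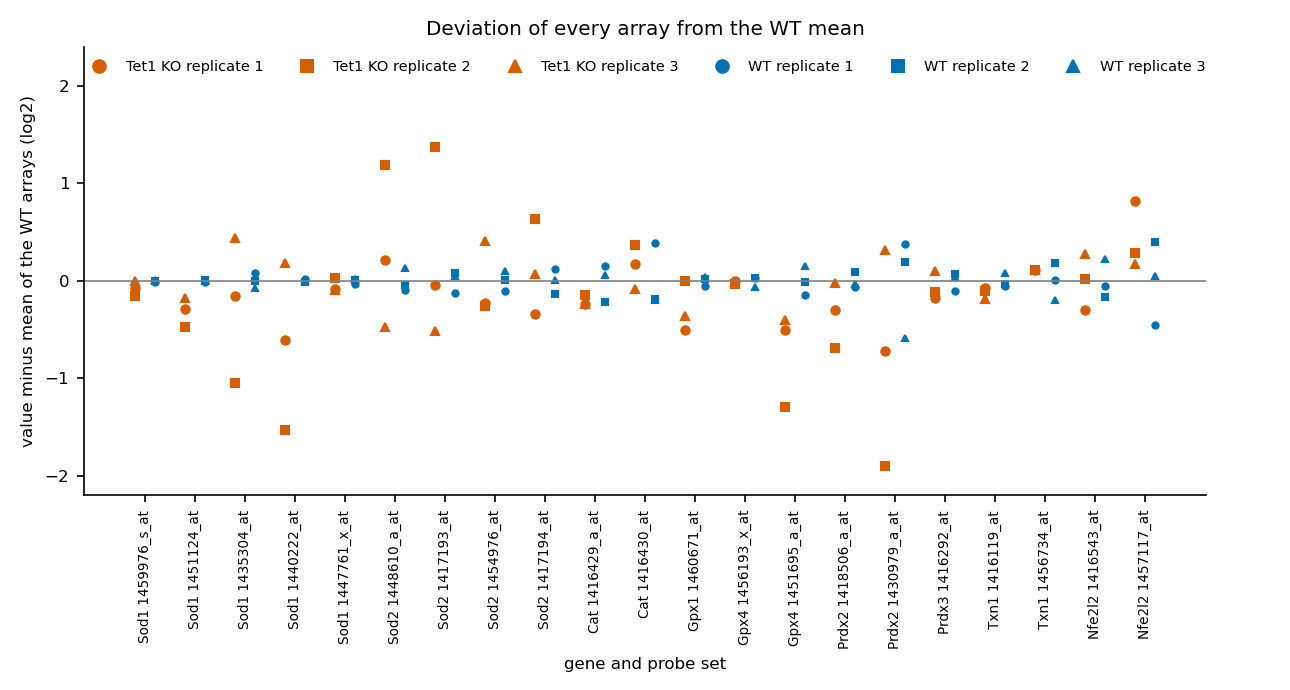
Deviation of each Tet1 KO array from the WT mean (log2) at every member probe set. Points of Tet1 KO replicate 2 reach farthest from 0 for 12 of 21 members, above 0 at 3 of the 4 Sod2 probe sets and below 0 at both of Prdx2.

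The members lie among the bright probe sets, and the difference between the groups varied with level over the whole array. Of the 21, 16 had a mean over 7.06, the 75th percentile of all probe sets. Bins of all probe sets near a level of 3.51 had a median difference of 0.16, and those near 8.44 had -0.14. Over the 11259 probe sets above that level the median difference was -0.12, against 0.06 over all 45037. The members' median of -0.06, or -0.08 for the 19 above background in both groups, lies between these values. The members' median was -0.000228 after cyclic loess normalization, and the cause of that move was not tested.

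**Figure D4:**
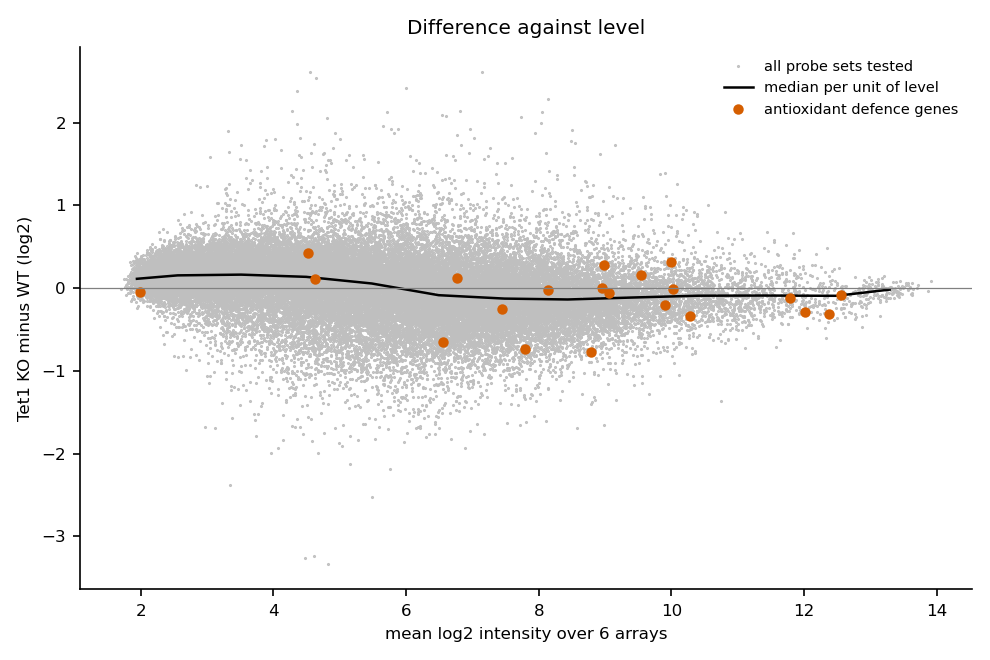
Difference of Tet1 KO minus WT (log2) against mean log2 intensity for the member probe sets, with the median difference of all probe sets in bins of level. Most members lie to the right, where the median of all probe sets is below 0.

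The rest of the pathway was read through 6 lists, of which 66 of 72 genes were measured. In Tet1 KO 24 were higher and 42 lower, with a median of -0.15 and a range of -0.82 to 0.97. The median was -0.0886 after cyclic loess and -0.0769 by the mean of each gene's probe sets. Limma called 0 of the 66 after adjustment, and 1 higher and 5 lower genes had an unadjusted p under 0.05, where 3.25% of all genes were called higher and 3.96% lower. The groups did not overlap for 2 higher and 9 lower genes, against 10.3% of all genes higher and 6.88% lower. By sign, 10280 of all 18193 genes were higher and 7913 lower. Above the 75th percentile of mean level, 3738 of 11259 probe sets were higher and 7521 lower. Without overlap, 346 of these were higher and 1431 lower. List genes lay on both sides of that level. These lists were drawn up with earlier results of these data known and are given as counts.

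The list named glutathione supply, which also holds glutaredoxins, numbered 10 genes, with 4 higher, 6 lower and a median of -0.14. Glrx5, a mitochondrial glutaredoxin that passes on iron-sulphur clusters, read 8.85, 8.75 and 8.95 in Tet1 KO and 9.58, 9.64 and 9.35 in WT. No array overlapped, and the difference was -0.67 (SE 0.15, adjusted p = 0.643). Gsr, the reductase that regenerates glutathione, read 9.32, 11.32 and 9.60 in Tet1 KO and 8.88, 9.24 and 9.22 in WT. Each Tet1 KO array lay above the WT arrays, Tet1 KO replicate 2 by the most. The difference of 0.97 (SE 0.50) was 0.35 without that array and 0.49 as the mean of the Gsr probe sets. Glrx, the cytosolic glutaredoxin, differed by -0.51 (SE 0.30), and by -0.16 without WT replicate 3.

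Of 12 thioredoxin and peroxiredoxin partners 10 were measured, with 3 higher, 7 lower and a median of -0.23. Txn2, the mitochondrial thioredoxin that serves Prdx3, read 8.91, 7.81 and 8.61 in Tet1 KO and 9.27, 9.20 and 9.18 in WT, a difference of -0.77 (SE 0.28) that was -0.46 without Tet1 KO replicate 2. Every Tet1 KO array lay below the WT arrays. Txnrd3, a thioredoxin reductase, differed by 0.88 (SE 0.46), and by 0.37 without Tet1 KO replicate 2. Msra, which repairs oxidised methionine, differed by -0.24 (SE 0.14), and by -0.12 after cyclic loess normalization.

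The other dismutase and glutathione peroxidase genes were 4 higher and 4 lower, with a median of 0.00948, and 4 of the 8 were under background in both groups. Ccs, the copper chaperone that loads Sod1, differed by -0.32 (SE 0.20), and by -0.18 without WT replicate 2. Gpx7 differed by -0.46 (SE 0.27) and by -0.25 without Tet1 KO replicate 3, and Sod3, the extracellular dismutase, was under background in both groups, so no difference is given for it.

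Regulators and relatives of Nfe2l2 numbered 11, with 5 higher, 6 lower and a median of -0.03. Keap1, which marks Nfe2l2 for degradation, differed by -0.32 (SE 0.19), and by -0.17 as the mean of its probe sets. Bach1, a repressor at the same elements, differed by -0.34 (SE 0.28), and by -0.05 without Tet1 KO replicate 2. Nfe2, a relative that acts in megakaryocytes and red cells, differed by -0.33 (SE 0.21), and by -0.50 without Tet1 KO replicate 3.

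Of 16 Nfe2l2 targets 14 were measured, with 4 higher, 10 lower and a median of -0.22. Gstm1, a glutathione transferase, read 9.01, 9.16 and 9.18 in Tet1 KO and 9.55, 9.35 and 9.86 in WT, a difference of -0.47 (SE 0.18) that was -0.30 as the mean of its probe sets. Ephx1, an epoxide hydrolase, read 4.11, 4.26 and 4.30 in Tet1 KO and 4.77, 4.47 and 4.88 in WT, a difference of -0.48 (SE 0.17). All 3 of its Tet1 KO values were under the bacterial control level of 4.39. For both genes the groups did not overlap. Hmox1, haem oxygenase, differed by -0.48 (SE 0.25), and by -0.27 without Tet1 KO replicate 3.

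Of 15 oxidant sources and redox regulators 13 were measured, with 4 higher, 9 lower and a median of -0.27. Subunits of the phagocyte NADPH oxidase had differences of opposite sign. Ncf1 read 9.13, 8.06 and 8.17 in Tet1 KO and 7.65, 7.57 and 7.42 in WT, and its difference of 0.91 (SE 0.29) was 0.57 without Tet1 KO replicate 1 and 0.30 as the mean of its probe sets. Cyba read 7.01, 7.15 and 6.70 in Tet1 KO and 7.34, 7.31 and 7.61 in WT, a difference of -0.47 (SE 0.18). Both were without overlap between the groups, and the granulocyte and monocyte markers summed to 12.2 to 12.8 in Tet1 KO and 12.2 to 12.7 in WT, with their part not tested. Foxo4, a forkhead factor, differed by -0.55 (SE 0.29), and by -0.22 without Tet1 KO replicate 2.

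**Figure D5:**
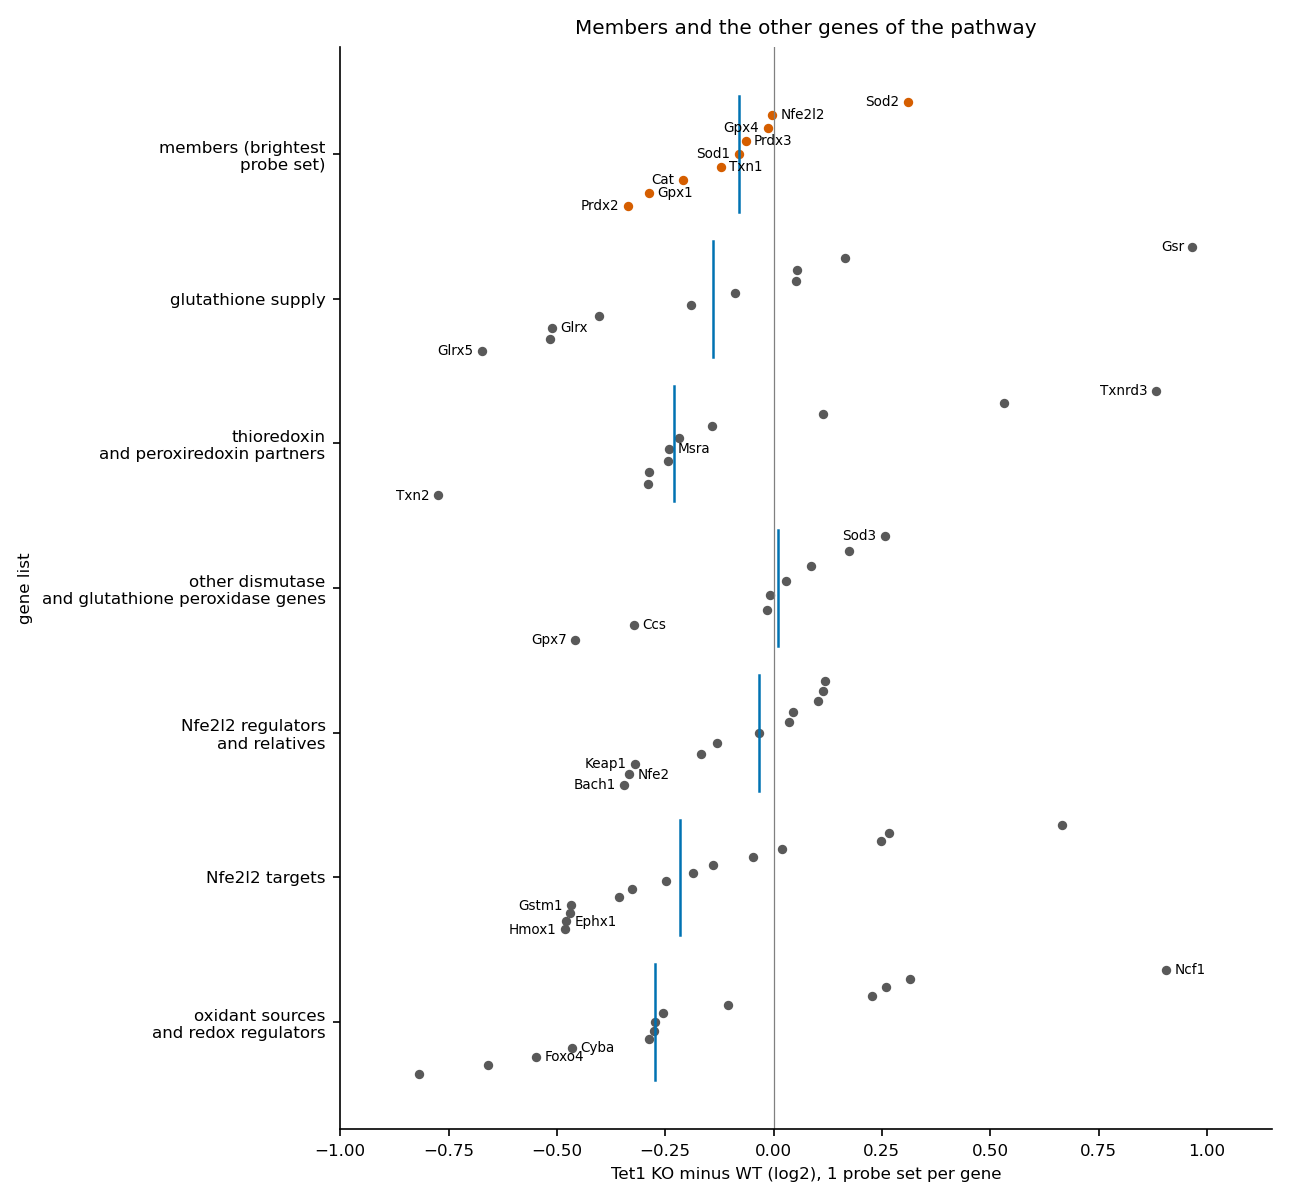
Difference of Tet1 KO minus WT (log2) for the 9 members at the top and each measured gene of the 6 pathway lists below them, with vertical bars at the median of each list and the 3 smallest unadjusted p of each list named. The 66 list genes span -0.82 to 0.97, and 42 lie below 0.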

How the data were processed

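The deposited table held log2 probe set intensities, 1 value per probe set and array, which the authors had normalized and summarized by a method not given in the sources used here. Values between 1.50 and 14.6 with near-equal array medians gave the log2 scale. Groups were taken from the sample titles. Gene names came from a platform annotation, by which 34958 probe sets had 1 symbol and 932 had several.

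Tet1 KO was compared with WT in limma 3.58.1 under R 4.3.3 (lmFit and eBayes, two-sided, genotype as the only term), with Benjamini-Hochberg adjustment over 45037 probe sets, after leaving out 64 controls, at a threshold of 0.05. Gene counts used the probe set with the highest mean. An exact permutation test of 3 against 3 cannot go below 0.1. No filter on dim probe sets was applied. The bacterial control level averages, over the 6 arrays, the brightest among 27 bacterial controls. The fit was tested on simulated data. Named list genes were the 3 with the smallest unadjusted p in each list. The members and lists were chosen with earlier results of these data known. Alternatives were 3 normalizations, a filter on level, an intensity trend, array weights, the replicate block, the mean of probe sets and leaving out each array. The Xist-low state as a covariate was chosen after seeing the data. Figures used matplotlib 3.10.9.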

Additional observations from a re-analysis of the deposited data

How the results depend on the processing

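After adjustment 0 members and 0 list genes were called in limma under every alternative run, and the lowest adjusted p of a member probe set was 0.486. Of 21 member probe sets, 13 kept their sign under every alternative run on them (14, or 13 for Sod1 at 1447761_x_at, which the level filter removed) and 8 did not. Of the member probe sets, 1 lower had an unadjusted p under 0.05. There were 2 with an intensity trend (Sod1 added) or array weights (Gpx1 added), and 0 to 4 leaving out 1 array. The 4 were reached without Tet1 KO replicate 3. Among all probe sets the share lower at that threshold was 3.58% on all arrays and 3.3% with the intensity trend. It was 3.78% with array weights, 2.17% to 5.19% leaving out 1 array, and 4.72% without Tet1 KO replicate 3. Member probe sets lower without overlap numbered 3, 5 after quantile normalization and 3 to 10 leaving out 1 array. In the higher direction they numbered 0, and 0 to 2 leaving out 1 array. The 10 lower were reached without Tet1 KO replicate 3, where 12.6% of all probe sets were lower without overlap against 6.29% on all arrays. The members' median of -0.06 was -0.000228 after cyclic loess and -0.141 to -0.0327 leaving out 1 array. By gene, the lower unadjusted count of 0 was 1 with array weights and 0 to 1 leaving out 1 array. Genes without overlap were 1 lower, 2 after quantile normalization or a median shift, 0 after cyclic loess and 1 to 4 leaving out 1 array, and 0 higher, 1 by the mean of probe sets and 0 to 1 leaving out 1 array. The gene median of -0.08 was -0.000228 after cyclic loess. In the lists, 1 higher gene at an unadjusted p under 0.05 became 2 with array weights or the replicate block and 0 to 4 leaving out 1 array, and 5 lower became 3 after quantile normalization and 1 to 8. At that threshold 3.75% of all probe sets were higher with array weights, 1.97% with the replicate block and 1.29% to 5.09% leaving out 1 array. Lower were 3.17% after quantile normalization and 2.17% to 5.19% leaving out 1 array. List genes without overlap were 2 to 7 higher leaving out 1 array, and 5 lower after cyclic loess or 11 to 19 leaving out 1 array. Among all probe sets 6.38% were lower without overlap after cyclic loess and 9.05% to 12.6% leaving out 1 array. Shares by setting were computed over probe sets, not genes, and without overlap only for the lower direction. The list median was -0.10 after quantile normalization or with array weights, -0.0886 after cyclic loess, -0.0769 by the mean of probe sets and -0.18 to -0.11 leaving out 1 array. The cause was not tested. Same-numbered replicates showed no shared deviation over all probe sets (correlations 0.0127, -0.00632 and 0.000539), which does not settle whether the samples were paired. The replicate block left the member counts as they were. Dim probe sets near the bacterial control level limit what can be read for Nfe2l2 at 1457117_at, Txn1 at 1456734_at, Ephx1 and Sod3.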

Other observations

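Prdx1, a cytosolic peroxiredoxin (chromosome 4, 116685599 to 116700000), is named together with the pseudogene Gm21399 (chromosome 8, 129252925 to 129254339) at 5 probe sets, so their values cannot be given to either. At 1416000_a_at the Tet1 KO arrays read 10.23, 10.48 and 10.46 and the WT arrays 10.59, 10.80 and 10.79, a difference of -0.34 (SE 0.16) without overlap between the groups (adjusted p = 0.686, limma). The other 4 differed by -0.16, -0.14, 0.01 and 0.01.

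The Txn1 probe set 1456734_at is the 1 probe set of all those tested with the same value on all 3 Tet1 KO arrays, and 6 probe sets had the same value on all 3 WT arrays, counting only values equal in every deposited digit.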
